A study of Arabidopsis thaliana with 64 samples.

Results

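FCAVRN2 is an Arabidopsis line named for both the FCA and the VRN2 locus, and 4 of the 64 arrays of the series carry it. They were chosen by their titles, with no use of measured values. In 2 arrays RNA of FCAVRN2 plants grown under 8 h of light (short days) was set against RNA of WT plants. In the other 2, RNA of FCAVRN2 plants under 16 h of light (long days) was set against RNA of FCA plants. All plants of these groups were 12 days old. Each group has biological replicates 1 and 2, of which 1 array had its dyes swapped: replicate 1 at 8 h and replicate 2 at 16 h. Replicate 1 at 16 h is labelled as technical replicate 2. Comparator and day length changed together between both groups, so their parts cannot be told apart. The alleles, the tissue, the dyes and any cold treatment are not stated in the labels, nor is it stated whether WT or FCA RNA was shared between arrays.

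FCA is an RNA-binding protein of the autonomous pathway, which promotes flowering in every day length by keeping the floral repressor FLC low. VRN2 is a zinc finger protein of a Polycomb complex that deposits repressive histone methylation, and it is needed to keep FLC silent after a long cold period (vernalization). A plant that lacks FCA function flowers late and accumulates FLC, and without VRN2 cold no longer gives a stable repression. The design therefore asks what the double mutant expresses beside WT, and what it expresses beside the FCA line.

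No named probe of the array measures FCA, VRN2, VRN1, FLC or MAF1 to MAF5, so neither mutation could be checked against the data. Of 13824 probes, 6341 have a gene name, for 5164 genes. Values are log2 of the deposited ratios. Values above 0 are read here as higher in FCAVRN2. That reading is likely, since FCAVRN2 is what the descriptions set against WT or FCA and is in channel 1 of the unswapped arrays. The direction is not settled: of 992 pairs of arrays with the same orientation and from different groups, 7 correlated below -0.3, and a FCAVRN2 array was in some of these. With the sign turned, every rise given here is a fall, every fall is a rise, and sizes and p-values stay. A probe is said to have risen or fallen, or to be called, where limma's adjusted p was under 0.05 in 1 model over all arrays.

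The 4 arrays differed in spread. The SD of the log2 ratio was 0.383 on 16 h replicate 2, which ranked 5 of 64 arrays from the widest, and 0.286 on 16 h replicate 1. It was 0.165 on 8 h replicate 1 and 0.266 on 8 h replicate 2. At 16 h, 350 probes of replicate 2 and 74 of replicate 1 lay beyond 2-fold, against 18 and 63 on the 8 h arrays. Over all arrays the SD had a median of 0.226. Signal over background is unknown here, so the precision of a dim probe cannot be given, and the number of arrays limits the precision of every value.

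The 2 arrays of the 16 h group agreed weakly over probes, with r = 0.202, and 59.3% of probes had the same sign on both. This r ranked 7 of 32 groups, and it was 0.274 once each array had the mean over arrays of its orientation taken off. Between the 2 arrays of the 8 h group r was -0.05, with 48.4% of probes of the same sign. After that subtraction they had r = 0.212 and 57.7%. Probes share an array and a print, so these correlations are descriptions. At 16 h, 14 probes lay beyond 2-fold on both arrays, 4 with the same sign and 10 with opposite signs. At 8 h there were 11 such probes, all with opposite signs, and 0 after the orientation mean was subtracted. These values take the swapped arrays as already turned, which the labels do not state. If they were not, r is -0.202 at 16 h, with 40.7% of probes of the same sign and rank 26 of 32. At 8 h r is then 0.05, with 51.6% of the same sign, and all 11 probes beyond 2-fold on both arrays agree in sign.

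**Figure D1:**
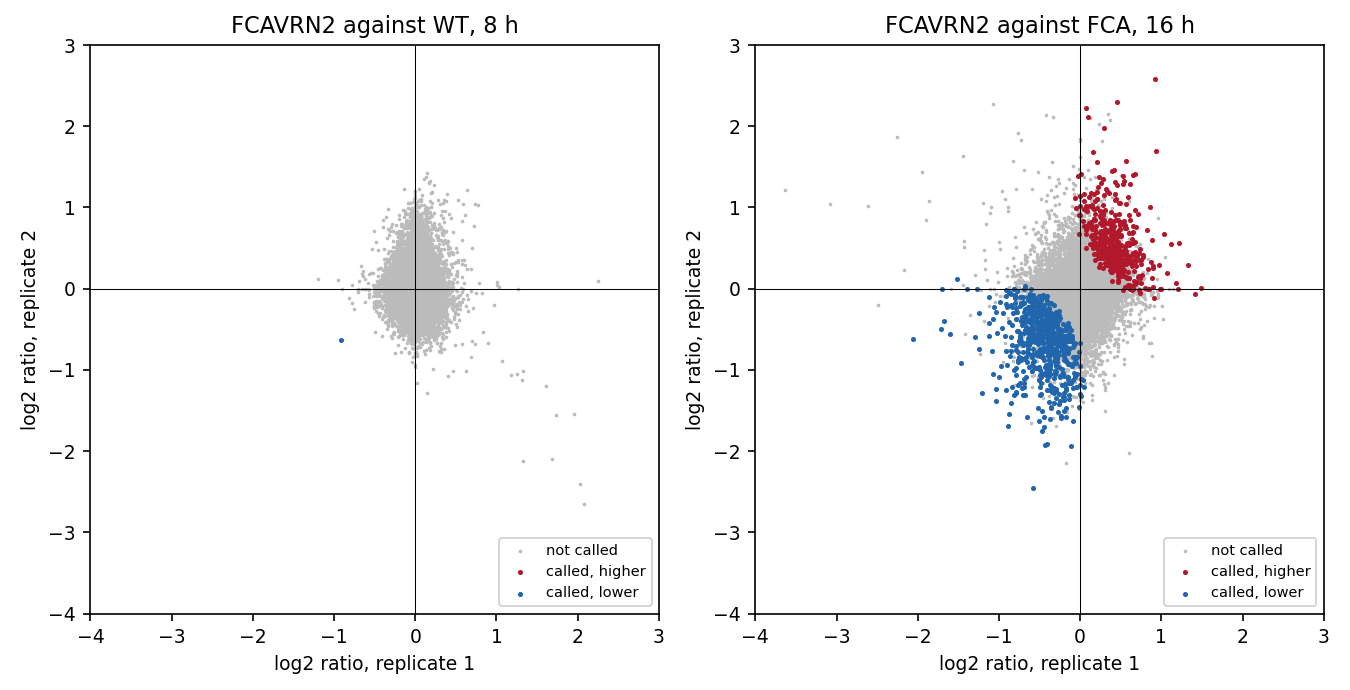
Log2 ratio on replicate 1 (x axis) against replicate 2 (y axis) for each probe, FCAVRN2 against WT at 8 h (left) and against FCA at 16 h (right), with called probes in colour. The 450 higher and 635 lower calls at 16 h fill the upper right and lower left, whereas the 8 h panel has 1 call and a string of probes with opposite signs.

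The first question was what FCAVRN2 expresses beside FCA in long days. Here 450 probes rose (3.26% of those tested) and 635 fell (4.59%), 1085 of 13824 in all (7.85%). Of these, 1046 had the same sign on both arrays, which calling on the mean of the arrays favours. Of the called probes 543 have a gene name, 264 higher and 279 lower, from 523 genes. The changes were moderate: the median absolute log2 ratio of called probes was 0.49, and 37 lay beyond 2-fold, 9 higher and 28 lower. On replicate 2 the median absolute log2 of the called probes was 0.56, against 0.43 on replicate 1. RNA was measured in bulk, so fewer cells of a type and less RNA per cell cannot be told apart.

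This count depends on how the spread of these 2 arrays is treated and on how swapped arrays are read. When all arrays were scaled to 1 spread, or weighted by their own residuals (a weight of 0.50 for each 16 h array), limma called 0 probes. Of the 1085 probes, 1082 and 1085 then still had an unadjusted limma p under 0.05, and all 1085 kept their sign. This could hardly come out otherwise and is no support, since the probes were chosen for small p on these same arrays. Equal weights also leave the group mean as it was, and scaling cannot turn a probe whose arrays share a sign. With swapped arrays turned limma called 97 probes, of which 2 were among the 1085, and 417 of the 1085 kept their sign. Without replicate 2 the count was 237, of which 135 were among the 1085, and without replicate 1 it was 1600, of which 636 were. For most chosen probes below the group mean is therefore given with the value of each array, and the adjusted p is that of the unscaled fit.

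**Figure D2:**
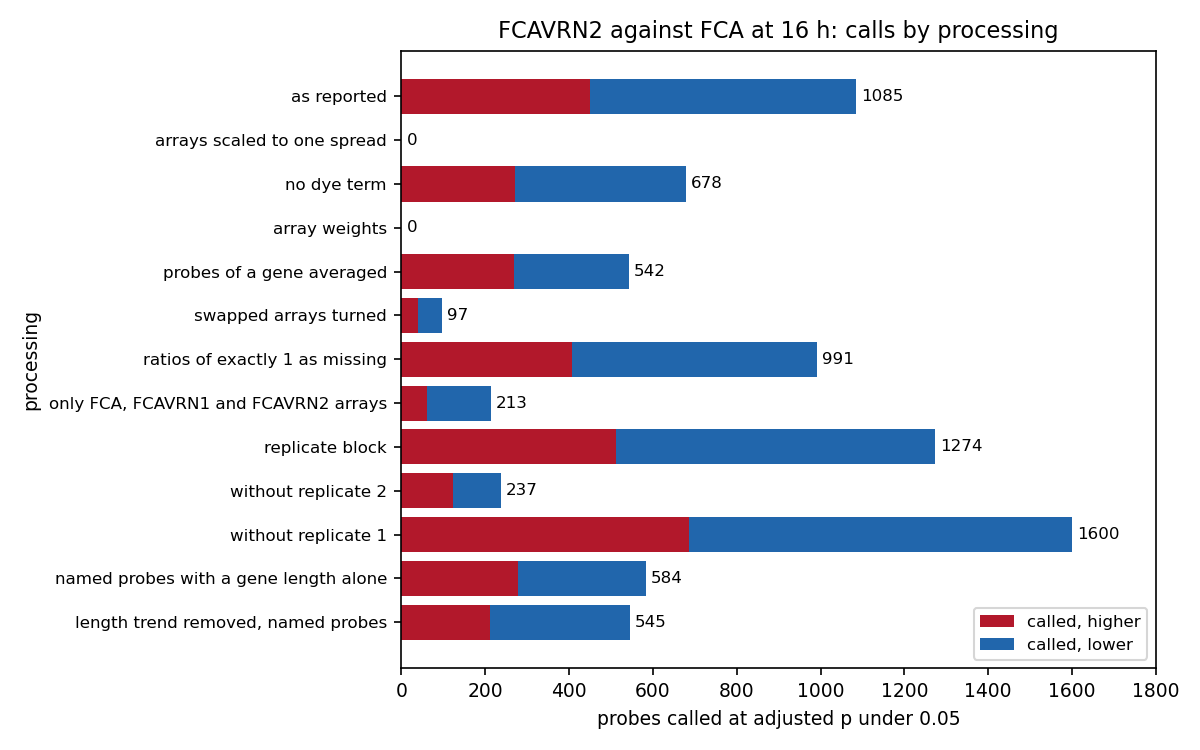
Number of probes called in FCAVRN2 against FCA at 16 h (x axis) as reported and under each alternative (y axis), split into higher and lower. The count ran from 0 with scaled arrays or array weights to 1600 without replicate 1, with 1085 as reported.

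Among the 12 named genes with the largest rise, 2 are known for stress responses. KIN2, a small hydrophilic protein induced by cold, abscisic acid and drought, had log2 ratios of 0.86 on replicate 1 and 1.01 on replicate 2. It rose by 0.93 ± 0.26 (SE, n = 2, limma adjusted p = 0.024), and both arrays gave nearly the same value. Against WT at 8 h KIN2 stood at 0.09 and 0.62, which was not called (0.35 ± 0.26). DI21, named for its induction by drought, had 0.41 and 1.46 at 16 h and rose by 0.94 ± 0.23 (limma adjusted p = 0.013). At 8 h DI21 was near 0, with a mean of 0.06.

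The other 10 of these genes carry locus names only, and no role is given to them here. AT4G07425 had 0.92 and 2.58 on replicates 1 and 2, and its mean of 1.75 ± 0.53 (3.37-fold, limma adjusted p = 0.037) was the largest rise of a named gene. AT5G49420 had 0.68 and 1.41, and rose by 1.04 ± 0.18 with the lowest adjusted p of the 12 (0.0012). AT5G57760 rose on both of its probes, by 0.95 on the stronger and by 0.70 on the other. AT4G16900 rose by 0.95 on 1 probe, while its other probe stood at -0.02. The remaining 6 are given with replicates 1 and 2 in brackets. AT5G34970 rose by 1.38 (0.45 and 2.30), AT2G04970 by 1.15 (0.07 and 2.22) and AT4G13470 by 1.13 (0.29 and 1.98). AT3G15600 rose by 1.06 (0.56 and 1.57), AT1G49500 by 0.93 (0.54 and 1.32) and AT5G49790 by 0.92 (0.16 and 1.68). Each of the 12 was higher on replicate 2 than on replicate 1. AT2G04970 was near 0 on replicate 1 (0.07) and at 2.22 on replicate 2, so its mean rests on 1 array.

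Among the 12 named genes with the largest fall, SAMDC was the one with the closest pair of values. SAMDC is an S-adenosylmethionine decarboxylase, an enzyme of polyamine synthesis, and had -0.998 on replicate 1 and -1.08 on replicate 2. It fell by 1.04 on the log2 scale (SE 0.32, limma adjusted p = 0.041). Another SAMDC probe fell by 0.78, and the remaining 3 of its 5 probes stood at -0.55, -0.07 and -0.02 and were not called. DSK2, a ubiquitin receptor that carries proteins to the proteasome, had -1.60 and -0.56 and a mean of -1.08 ± 0.32 (limma adjusted p = 0.03). Its 2 other probes stood at 0.01 and 0.02, so the fall was seen on 1 probe of 3.

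AT4G32330 had -2.06 and -0.62, and its mean of -1.34 ± 0.40 (2.53-fold, limma adjusted p = 0.034) was the largest fall of a named gene. FCAVRN2 at 8 h had 1.25 on the swapped and -1.06 on the unswapped array for this probe. In the same order FCA had 2.68 and -0.73 at 8 h, and FCAVRN1 against FCA had 1.00 and -0.88. FCA at 16 h had 0.00 and -0.08, and FCAVRN1 against WT had 0.03 and -0.07. With no dye term the fall of AT4G32330 was not called (limma adjusted p = 0.157). AT3G28550 had -1.47 and -0.92 on its strongest probe and fell by 1.19 (SE 0.31). Another probe of AT3G28550 fell by 0.49, while the remaining pair stood at -1.02 (adjusted p = 0.069) and 0.13. AT5G15880 had -0.47 and -1.51 and the lowest adjusted p of the 12 falls (-0.99 ± 0.20, 0.0043), with -0.26 on its other probe, which was not called. AT5G15680 was at -0.11 on replicate 1 and -1.93 on replicate 2. The others are given with replicates 1 and 2 in brackets. AT2G44430 stood at -1.07 (-0.51 and -1.62), AT3G17770 at -1.04 (-1.675 and -0.40) and AT5G08670 at -1.02 (-0.83 and -1.21). AT5G35160 stood at -0.995 (-0.52 and -1.47), AT3G14750 at -0.99 (-0.67 and -1.31) and AT2G41840 at -0.98 (-0.77 and -1.19). Of these 6, AT3G17770 (-0.01) and AT2G41840 (-0.13) have another probe, and neither was called. At 8 h the first AT3G17770 probe had 0.89 on the swapped and -0.67 on the unswapped array. With no dye term its 16 h fall was not called (limma adjusted p = 0.135). In all, 8 of the 12 falls were larger on replicate 2. Of the 24 genes of both directions, 17 were called with no dye term and 0 with swapped arrays turned. In a fit to the FCA, FCAVRN1 and FCAVRN2 arrays alone 9 were called. The 24 genes together were called 0 times with scaled arrays or array weights, 19 times without replicate 1 and 1 time (DSK2) without replicate 2.

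**Figure D3:**
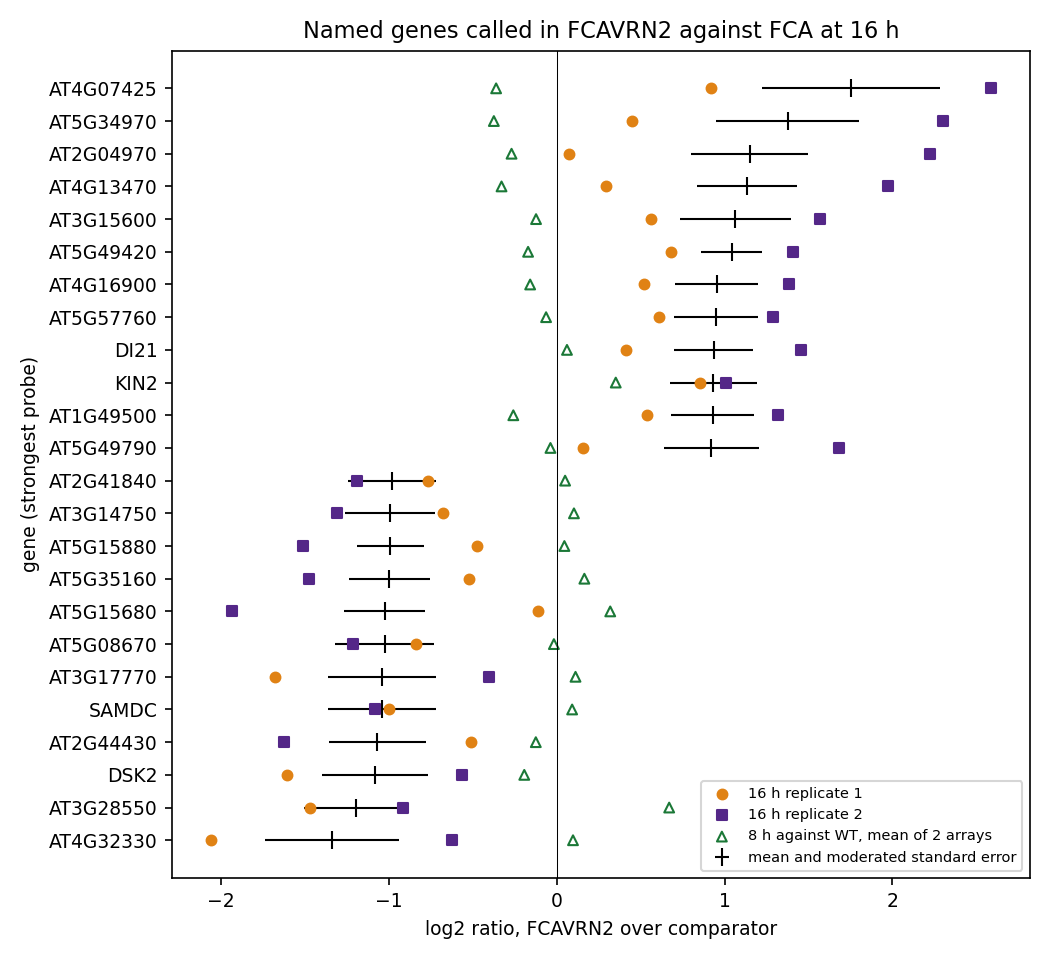
Log2 ratio (x axis) of the 24 named genes with the largest changes in FCAVRN2 against FCA at 16 h, 12 per direction (y axis): circles and squares are the 2 arrays, vertical ticks with bars are the mean and its moderated standard error. Triangles give the mean of the same probe against WT at 8 h, where none of the 24 was called.

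The largest changes of probes with no gene name were a fall of SP0000125885 and a rise of SP0000127622. SP0000125885 had -0.58 and -2.46 (-1.52 ± 0.33, limma adjusted p = 0.006), and SP0000125086 had -0.89 and -1.69 (-1.29 ± 0.22, adjusted p = 0.00092). SP0000119147 had 0.10 and 2.12 and rose by 1.11, again mostly on replicate 2.

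SP0000127622 was above 0 on both FCAVRN2 arrays against WT, on both against FCA, and on all 4 arrays of FCA against WT. Against FCA at 16 h it had 0.94 on replicate 1 and 1.69 on replicate 2, and rose by 1.31 ± 0.21 (2.49-fold, limma adjusted p = 0.00084). Against WT at 8 h it had 0.72 and 0.77. Both arrays were high and close together, but with a mean of 0.75 ± 0.21 the probe was not called there (adjusted p = 0.56). FCA itself, against WT, had 1.89 and 1.97 at 8 h and 1.27 and 1.05 at 16 h. FCAVRN2 thus lay below FCA at 8 h by 1.18 on the log2 scale, with no overlap of the arrays, but that difference was not called (SE 0.30, limma adjusted p = 0.25). Set beside FCA, the probe was therefore lower at 8 h, indirectly through WT, and higher at 16 h. What lies behind these opposite directions was not tested. The other double mutant, FCAVRN1, had 0.01 and 0.25 against WT and 0.00 and -0.16 against FCA. The difference of FCAVRN2 minus FCAVRN1, both against FCA, was 1.39 ± 0.30 and just missed the threshold (adjusted p = 0.052). Over the 30 groups of other lines the group mean of this probe ran from -2.38 in FLC20 at 8 h to 1.93 in FCA at 8 h, with a median of 0.05. In 14 of the 30 it was below 0. Values above 0 were not particular to FCA and FCAVRN2. Against WT the means at 8 h and 16 h were 1.29 and 1.28 in FVE, 1.11 and 0.53 in FY, and 0.58 and 0.40 in FPA. The 16 h of the FVE arrays is taken from their titles. In FPA each mean came mostly from 1 array (0.13 and 1.02 at 8 h, 0.77 and 0.02 at 16 h). Earlier results had given this probe for the autonomous lines, which is why it was followed. The FLC20 groups were set against C24, not WT, in plants of 9 days. Without replicate 2 the 16 h rise of SP0000127622 was not called (adjusted p = 0.083).

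**Figure D4:**
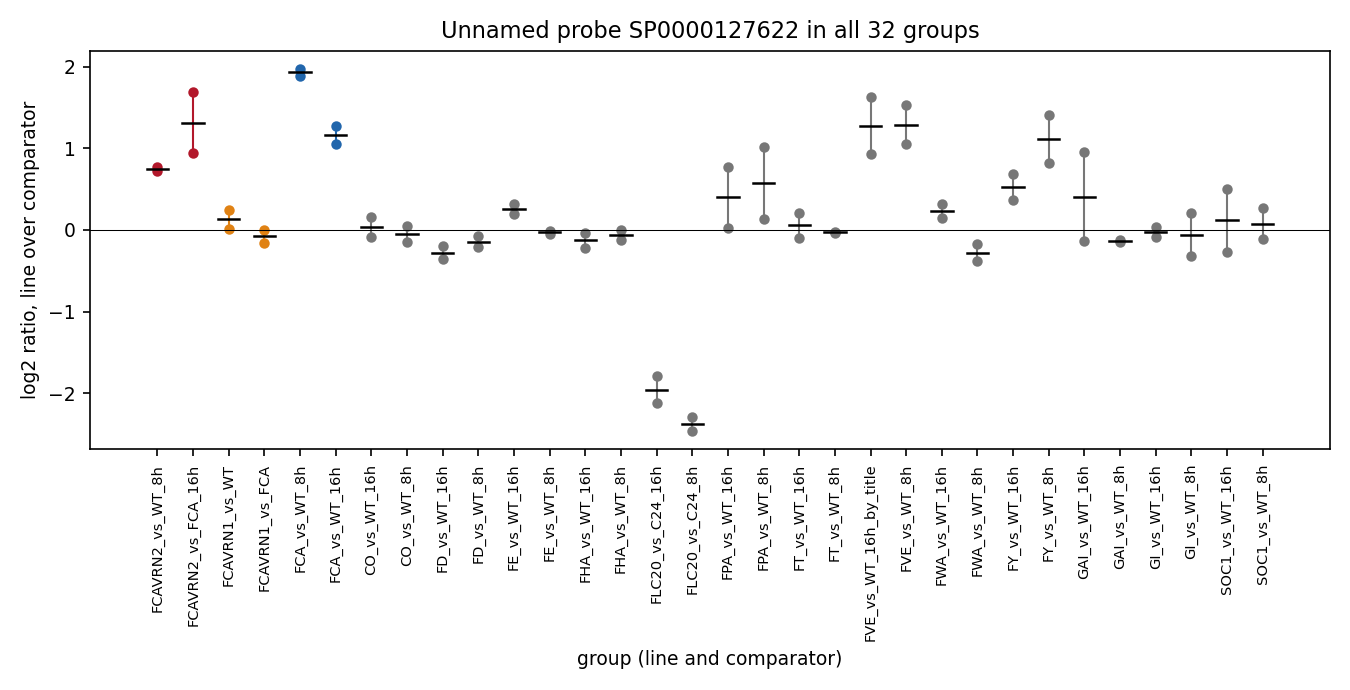
Log2 ratio of the unnamed probe SP0000127622 (y axis) on both arrays (points) of all 32 groups (x axis), with group means as bars (FLC20 is against C24 in plants of 9 days), FCAVRN2 in red, FCAVRN1 in orange and FCA in blue. The FCAVRN2 arrays lie at 0.72 and 0.77 against WT at 8 h, and at 0.94 and 1.69 against FCA at 16 h. The 4 FCAVRN1 arrays, against WT or FCA, lie between -0.16 and 0.25.

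Of 32 flowering time regulators in a fixed list, 3 have a named probe, and 2 of these fell at 16 h, where 4.59% of all probes fell. FPA, an RNA-binding protein of the autonomous pathway like FCA, had -0.69 on replicate 1 and -0.28 on replicate 2, a mean of -0.49 ± 0.10 (limma adjusted p = 0.0059). LD, a homeodomain protein of the same pathway, had -0.37 and -0.36, with a mean of -0.37 ± 0.10 (adjusted p = 0.019). Neither was called with scaled arrays or array weights. LD was also not called without replicate 2 (adjusted p = 0.387) or with no dye term (0.0726), and FPA was not without replicate 1 (0.0803). SNZ, a repressor of flowering of the AP2 family, stood at 0.14 and 0.06 and was not called. Against WT at 8 h FPA was listed at exactly 0 on both arrays, LD had 0.08 and -0.14, and SNZ had -0.07 and 0.03. In FCA at 16 h against WT these probes had means of -0.09 (FPA), -0.03 (LD) and -0.12 (SNZ). The list had a median of -0.37 over its 3 probes, against 0.00 over all probes.

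The photosynthesis list has 7 of 34 genes on the array, with 17 probes, of which 3 fell and 0 rose at 16 h. Over all probes 4.59% fell and 3.26% rose. The list's median log2 ratio was -0.48, against 0.00 over all probes, and 13 of the 17 probes were below 0. Several probes measure the same gene: PORB has 5 of the 17, and PRK and RCA have 3 each. PRK, the phosphoribulokinase that regenerates the CO2 acceptor of the Calvin cycle, had -0.78 and -0.98 on its strongest probe and fell by 0.88 on the log2 scale (SE 0.25, limma adjusted p = 0.025). Its other probes stood at -0.75 and -0.74 and were not called, and all 6 values of PRK lay between -0.98 and -0.62. PORB, which makes chlorophyllide in the light, fell on 2 of its 5 probes, by 0.84 and 0.35. A PORB probe that was not called stood at 0.07, and the last 2 at -0.69 and -0.66, nearly all of it from replicate 2 (-1.33 and -1.32, against -0.05 and 0.00 on replicate 1). RCA, the activase of Rubisco, stood at -0.55, -0.48 and -0.35 on its 3 probes, none of them called. LHCB4.2, a light-harvesting protein of photosystem II, stood at -0.50, with -0.05 on replicate 1 and -0.94 on replicate 2. LHCB4.1 stood at 0.19, and LHB1B2 at -0.31 and -0.28, below 0 through replicate 2 alone. None of these light-harvesting probes was called. PSBW, a photosystem II subunit, was above 0 on both probes (0.42 and 0.27), also not called. At 8 h against WT the list had a median of 0.01, with 10 probes above 0 and 7 below, and 0 calls.

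KIN2 was the 1 call among 6 probes for cold and drought genes, which cover 3 of the 19 listed, beside the 3.26% of all probes that rose. COR47, a dehydrin, stood at -0.38 on 1 probe, with 0.00 on replicate 1 and -0.77 on replicate 2, and at 0.13 on the other. STZ, a zinc finger repressor induced by cold and salt, lay between -0.06 and 0.14 on 3 probes. The dark and sugar starvation list had 11 probes of 5 genes, with a median of 0.02 and 0 calls. AT3G15450 stood at 0.30 and 0.17 on its 2 probes, and AT4G27450 between -0.24 and -0.04 on its 4.

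PDF1.2, a defensin that responds to jasmonate with ethylene, had log2 ratios of 0.39 and 0.73 on 1 probe at 16 h and 0.00 and 0.61 on the other. Neither was called (0.56 ± 0.40, limma adjusted p = 0.43). The related PDF1.3 stood at 0.30. In FCA against WT at 16 h the first PDF1.2 probe was at -2.28 (limma adjusted p = 0.014). Whether this bears on the values of FCAVRN2 against FCA was not tested. DFR, an enzyme of anthocyanin synthesis, had 0.68 and 0.24 against WT at 8 h. Against FCA at 16 h it had 0.22 and 0.54, and it was not called in either group. SAG101, a partner of EDS1 in salicylate-dependent defence, had opposite signs on the arrays of a group, with 0.70 and -0.65 at 8 h. EXPA7, a root hair expansin and the 1 measured root marker, was near 0 in both groups. The lists for vernalization and Polycomb, the circadian clock, seed storage and floral organs have no named probe, and 23 of the 197 listed genes were measured in all.

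Seen across all genes with a symbol in the RefSeq table, 78 called probes of 73 genes had the same sign on both arrays at 16 h, 23 higher and 55 lower. Over all probes 3.26% rose and 4.59% fell. How many probes with a symbol were tested was not counted, so these counts cannot be set against those shares. The 8 genes per direction whose smaller value of both arrays was largest were picked after the values were seen. Among the falls, VCS, a scaffold of the mRNA decapping complex, had -0.76 and -0.78 (-0.77 ± 0.18, limma adjusted p = 0.0086). A further VCS probe stood at -0.11 and was not called. Its relative VCR had -0.58 and -0.61 (-0.59 ± 0.14, adjusted p = 0.0085). TIC, a nuclear regulator of the circadian clock, had -0.76 and -0.90 (-0.83 ± 0.20, adjusted p = 0.012), and its other probe stood at -0.47, not called. MPPBETA, the beta subunit of the mitochondrial processing peptidase, had -0.73 and -0.87 on the chosen probe and fell by 0.96 on another, with -0.42 on its last, which was not called. MSRB9, a methionine sulfoxide reductase, had -0.68 and -0.85 (-0.76 ± 0.15, adjusted p = 0.0031), and its other probe stood at -0.05. The first MSRB9 probe had -0.75 and -0.26 against WT at 8 h, where it was not called.

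Among the rises picked in the same way, KIN2 and DI21 are given above. PGY2, a ribosomal protein L9, had 0.50 and 0.82 (0.66 ± 0.12, limma adjusted p = 0.0031), another of its 3 probes rose by 0.40, and the last stood at -0.12. THIC, an enzyme of thiamine synthesis, had 0.44 and 0.55 (0.49 ± 0.13, adjusted p = 0.02), with -0.01 on its other probe. CHR34, a chromatin remodelling protein, had 0.37 and 0.54 (0.46 ± 0.10, adjusted p = 0.0056). MED22B, a subunit of the Mediator complex, had 0.42 and 0.83. IMP4, a ribosome biogenesis factor, had 0.38 and 0.36, and ARLA1C, a small GTPase, had 0.39 and 0.46. None of these genes was called at 8 h.

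Called probes at 16 h differed by gene length, a feature no step of the test used. Named probes were split into 5 equal classes by the length of the gene in the RefSeq table. In the shortest class 90 probes rose and 32 fell, and in the next 64 rose and 45 fell. In the middle class 53 rose and 61 fell, in the next 25 rose and 69 fell, and in the longest 30 rose and 72 fell. Length and log2 ratio had a rank correlation over 6322 probes of -0.237 on replicate 2, the lowest of all 64 arrays, and of -0.07 on replicate 1. At 8 h it was 0.09 and -0.05. With the length trend removed, 545 of these probes were called (212 higher, 333 lower), against 584 without that step (278 higher, 306 lower), and each of the 24 named genes was still called. What lies behind the trend was not tested. Of 91 probes of annotated pseudogenes, 14 rose and 4 fell (19.8% called), against 248 and 275 of 6230 probes of protein-coding genes (8.395%).

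**Figure D5:**
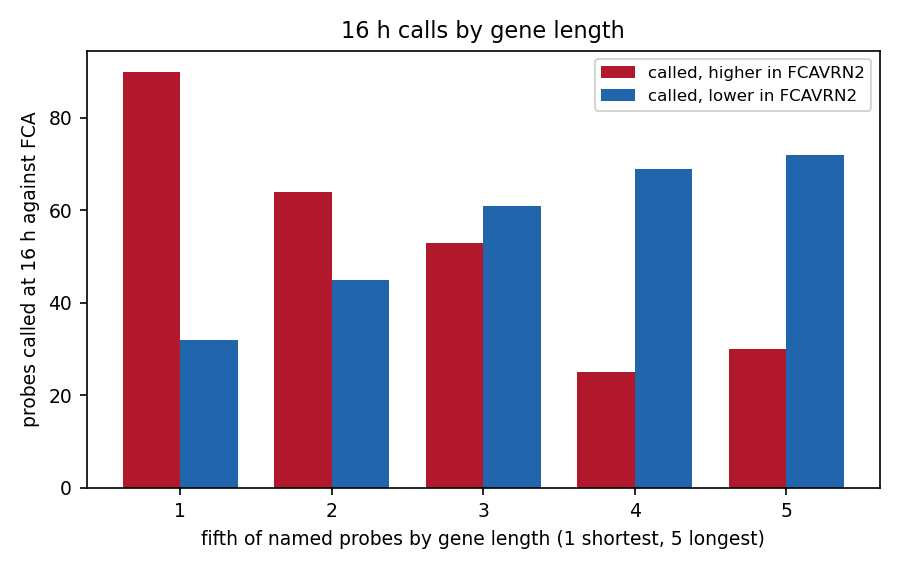
Number of named probes that rose or fell in FCAVRN2 against FCA at 16 h (y axis) in 5 classes of gene length from shortest to longest (x axis). Rises exceed falls in the shortest class (90 and 32), and falls exceed rises in the longest (72 and 30).

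Different probes of the same gene were compared within the arrays. Over 795 genes with several probes, leaving out AT1G54410, pairs of probes correlated with r = 0.463 for the mean of the 16 h arrays, with 0.507 on replicate 2 and 0.28 on replicate 1. For the mean of the 8 h arrays r was 0.299. Of the 128 genes with several probes and at least 1 call at 16 h, 91 had the same sign on all probes (71.1%), against 58.7% of all 795 genes. In 14 genes 2 or more probes were called, and in 13 of them in 1 direction. The called genes were chosen for their values on these same arrays, and probes of a gene share each array's errors. More agreement of signs among them is therefore no support for the calls. The 50 probes of AT1G54410 had an SD of 0.302 on replicate 2 and 0.236 on replicate 1.

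The second question was what FCAVRN2 expresses beside WT in short days. By limma 1 of 13824 probes was called (0.00723%), the unnamed SP0000126145, and 639 had an unadjusted p under 0.05. With no difference at all, a share of about 0.05 of the probes would have such a p. Counts of this kind, here and below, therefore single out no probe. SP0000126145 had -0.92 on replicate 1 and -0.63 on replicate 2, a fall of 0.77 on the log2 scale (SE 0.12, limma adjusted p = 0.0019). Without replicate 1 it was not called (-0.67, adjusted p = 0.121), nor in a fit to the FCA, FCAVRN1 and FCAVRN2 arrays alone (0.19), and with swapped arrays turned its mean was 0.14. Against FCA at 16 h SP0000126145 stood at -0.14 and -0.24. The 13 single lines at 8 h against WT ranged from -0.44 to 0.05 for this probe, with a median of -0.23, and 10 of the 13 were below 0. Set against the mean of those 13 lines, the fall in FCAVRN2 was not called.

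No named gene was called at 8 h, so the genes whose smaller absolute value of the 2 arrays was largest are given as a description. Above 0, AT1G28135 came first by this rule, with 0.74 and 1.04, and its other probe had 0.41 and 0.53. At 16 h against FCA the first AT1G28135 probe had opposite signs (-1.95 and 1.43), and the other fell by 0.77 (adjusted p = 0.02). AT4G16260 had 0.50 on both arrays and 0.27 and 0.51 on its second probe. OSM34, an osmotin of the defence and osmotic stress response, had 0.46 and 0.70, while its other probe was near 0. AT4G28100 had 0.44 and 0.46. AT3G28550 had 0.57 and 0.83 at 8 h against WT, whereas the same probe had -1.23 and -0.80 at 16 h against FCA. Of the other AT3G28550 probes at 8 h, 1 stood at 0.67, and the rest at -0.17 and -0.13.

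Below 0, the genes picked by the same rule at 8 h were AT5G48490 (-0.49 and -0.53), AT4G33830 (-0.40 and -0.37), AT5G57960 (-0.34 and -0.38), AT1G04910 (-0.45 and -0.33) and AT5G22120 (-0.37 and -0.33). The rule favours arrays with close values. It leaves out a gene such as MSRB9 (-0.75 and -0.26), whose mean of -0.50 was lower than that of AT4G33830 (-0.39). AT4G33830 was low at 8 h but rose at 16 h, with 0.33 and 0.70 (0.51, limma adjusted p = 0.0061). The other probes of AT5G57960 (0.00) and AT5G22120 (0.09) did not follow.

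The probes called at 16 h mostly had the opposite sign at 8 h. Of the 1085, 673 had the opposite sign there (62.03%), 395 the same sign and 17 were at 0. Over all probes 51.9% had opposite signs. At 8 h 49 of the 1085 had an unadjusted limma p under 0.05, 14 with the same sign and 35 with the opposite one. Over all 13824 probes 639 had such a p at 8 h, which is a similar share. Over all probes the group means of 8 h and 16 h correlated with r = -0.07. Replicate 1 at 8 h correlated at -0.36 and -0.26 with replicates 1 and 2 at 16 h, and replicate 2 at 8 h at 0.14 and 0.11, so the sign of the relation turned with the 8 h array. The part of day length, comparator and array in this was not tested.

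Setting FCAVRN2 against FCA at 8 h, each measured beside WT, gave 0 calls by limma (0.0%). An unadjusted p under 0.05 was reached by 823 probes. The lowest adjusted p was 0.18. Without FCA replicate 2 the count was 44, of which 43 were lower in FCAVRN2, and without FCA replicate 1 it was 13. Against the mean of the 13 single lines at 8 h, limma called 0 probes (0.0%), and 753 passed at an unadjusted p under 0.05. These comparisons may share WT RNA.

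FCAVRN1, the double mutant with the other vernalization gene, gives the closest comparison. VRN1 is a DNA-binding protein that, like VRN2, maintains the repression of FLC after cold. The day lengths of the FCAVRN1 groups conflict in the labels, with 16 h in the titles and short days in the descriptions of the arrays against FCA, and the reverse for those against WT. A difference between the lines and one between day lengths therefore cannot be told apart. With both lines set against WT, limma called 0 probes (0.0%), and 775 had an unadjusted p under 0.05. Without FCAVRN1 replicate 1 the count was 39.

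With both lines set against FCA, 7 probes were called (0.0506%), 3 higher (0.0217%) and 4 lower (0.0289%) in FCAVRN2, each with a limma adjusted p of 0.049. AT2G23120 had 0.43 and 1.31 in FCAVRN2, against -0.45 and -0.10 in FCAVRN1, a difference of 1.14 ± 0.24. AT5G15190 had 0.25 and 0.90 in FCAVRN2, against -0.36 on both arrays in FCAVRN1 (0.93 ± 0.19). AT2G17540 had 0.73 and 0.36, against -0.24 and -0.11 (0.72 ± 0.15). Among the lower ones, AT5G63930 had -0.75 and -0.64 in FCAVRN2, against 0.30 and 0.00 in FCAVRN1 (-0.85 ± 0.17). AT3G17070 had -0.68 and -0.87, against 0.02 and -0.05 (-0.76 ± 0.15). AT3G29650 had -0.57 and -0.05, against 0.93 and 0.00 (-0.78 ± 0.16), and AT2G45600, named after its values were seen, had -0.74 and -0.58, against -0.02 and 0.20 (-0.75 ± 0.15). Another AT2G45600 probe stood at 0.06 in FCAVRN2 against FCA. The count was 0 with scaled arrays, array weights or no dye term. None of the 7 was still called without FCAVRN2 replicate 2 (adjusted p of 0.059 to 0.339) or without FCAVRN1 replicate 1 (0.0693 to 0.351), and the 5 and 7 probes called then were others. Without FCAVRN1 replicate 2 the count was 2, with AT3G29650 as the 1 of the 7 that was kept. Without FCAVRN2 replicate 1 the count was 512 and 6 of the 7 were kept. Leaving out either FCA array at 8 h, which enters these differences only through the shared spread, moved all 7 to an adjusted p of 0.0549.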

How the data were processed

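RNA of each line was hybridised beside its comparator on 2-colour cDNA arrays. The authors deposited 1 linear ratio per probe, spatially normalized by the method of Wilson and others, per the labels' descriptions, and each array has a median ratio of 1. Background correction, spot filters, which channel is on top and whether swapped arrays were turned are not stated there. Of the ratios of the FCAVRN2 arrays, 10.8% to 11.2% were exactly 1.

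Log2 was taken of each ratio with no other change, and both dye orientations were read in 1 direction. A single limma model (limma 3.58.1, R 4.3.3) over 63 columns (the 2 arrays labelled as 1 biological replicate of GI at 16 h were averaged), with a mean per group and a dye orientation term, gave moderated standard errors (5.17 prior and 30 residual degrees of freedom) and two-sided p-values, adjusted by Benjamini-Hochberg within each contrast. It assumes that all groups share 1 spread per probe. The dye term was called for 3373 probes. Gene names come from the platform annotation, updated through the TAIR10.1 table, which matched 6322 of 6341 named probes.

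Named genes are, per group, up to 12 per direction with the largest change among called probes with the same sign on both arrays, at most 2 unnamed probes per direction, up to 4 members of each list, the flowering loci listed above and SP0000127622. Without such calls (8 h), up to 5 per direction with the largest smaller value were taken, and up to 3 per direction for a difference between lines. The members, the lists and the rules were chosen with earlier results of these data known. No sequences were used here.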

Additional observations from a re-analysis of the deposited data

Results flagged for a closer look

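The results picked out for a closer look are the 7 probes whose difference between FCAVRN2 and FCAVRN1, both against FCA, passed limma's test of the difference itself. The log2 differences, FCAVRN2 minus FCAVRN1, were 1.14 for AT2G23120, 0.93 for AT5G15190 and 0.72 for AT2G17540. They were -0.85 for AT5G63930, -0.78 for AT3G29650, -0.76 for AT3G17070 and -0.75 for AT2G45600. None of the 7 was called without FCAVRN2 replicate 2 or without FCAVRN1 replicate 1. With a gene's probes averaged AT5G63930 (adjusted p = 0.341) and AT2G45600 (0.148) were not called. Against FCA, 5 of these 7 had both FCAVRN2 arrays beyond 0.3 with the same sign, the exceptions being AT5G15190 (0.25 on replicate 1) and AT3G29650 (-0.05 on replicate 2). Of the FCAVRN1 arrays, the widest value was 0.93 for AT3G29650 on replicate 1. Whether the conflicting day lengths of the FCAVRN1 labels bear on these differences was not tested.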

How the results depend on the processing

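Of 606 values of 52 named results under the alternatives, 317 kept direction and call, 247 kept direction without the call, and 42 reversed, all with swapped arrays turned. The 16 h count of 1085 was 0 with scaled arrays, 0 with array weights, 678 with no dye term, 542 with the probes of a gene averaged, 97 with swapped arrays turned and 213 in a fit to the FCA, FCAVRN1 and FCAVRN2 arrays alone. It was 584 for named probes with a gene length alone, 545 with the length trend removed, and 237 to 1600 without 1 of its arrays. The 8 h count of 1 was 2 with scaled arrays, 0 with probes averaged (the called probe has no gene name), 4 with swapped arrays turned, 0 in the small fit and 5 to 10 without 1 array, which without replicate 1 no longer held SP0000126145. For FCAVRN2 minus FCA at 8 h the 0 became 3 with scaled arrays, 2 with array weights and 1 with swapped arrays turned, 3 without either FCAVRN2 array and 13 to 44 without an FCA array. Against the 13 lines it was 4 to 8 without 1 FCAVRN2 array. For FCAVRN2 minus FCAVRN1 against WT it was 1 with ratios of exactly 1 as missing and 1 to 39 without 1 array. Against FCA the 7 became 0 with scaled arrays, no dye term, array weights, swapped arrays turned or the small fit, 12 with probes averaged, 4 with ratios of exactly 1 as missing and 2 to 512 without 1 array. The length step and the runs without an FCA or FCAVRN1 array were added after seeing the data. The cause of these changes was not tested, beyond the smaller number of probes or arrays in some.

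The reversed log2 ratios against FCA at 16 h were AT4G07425 -0.83, AT5G34970 -0.93, AT2G04970 -1.07, AT4G13470 -0.84, AT3G15600 -0.50, AT5G49420 -0.36, AT4G16900 -0.43, AT5G57760 -0.34, DI21 -0.52, KIN2 -0.0758, AT1G49500 -0.39, AT5G49790 -0.76, SP0000127622 -0.38, SP0000119147 -1.01, AT2G44430 0.56, SAMDC 0.0423, AT5G08670 0.19, AT5G15680 0.91, AT5G35160 0.48, AT5G15880 0.52, AT3G14750 0.32, AT2G41840 0.21, SP0000125885 0.94, SP0000125086 0.40, PRK 0.0989, PORB 0.58, PGY2 -0.16, THIC -0.0556, MED22B -0.20, ARLA1C -0.0349, CHR34 -0.0862, VCS 0.0101, TIC 0.0707, MPPBETA 0.0728, MSRB9 0.0851, VCR 0.0108. SP0000126145 at 8 h became 0.14. For FCAVRN2 minus FCAVRN1 against FCA they were AT2G23120 -0.62, AT5G15190 -0.32, AT5G63930 0.0931, AT3G29650 0.20, AT3G17070 0.13.

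The replicate numbers were not taken to pair the arrays, since no label ties a number to a shared batch and not every same-numbered pair correlated. Residuals of the FCAVRN2 arrays correlated with same-numbered arrays of other groups at a median of 0.12, but between -0.56 and 0.51, and other-numbered arrays mirror these values by construction. With the replicate block the counts were 1274 at 16 h, 1 at 8 h, 10 for the difference from FCAVRN1 against FCA and 0 for the other 3 differences.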

Other observations

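Single arrays of FCAVRN2 are set here beside the array they resembled most, out of 31 of the same orientation in other groups. A highest value of many tends to exceed the value of 1 partner. The 16 h replicate 2 array correlated over probes at 0.604 with replicate 1 of FY at 8 h, which has the same dye orientation, against 0.202 with its own partner. The 8 h replicate 2 array correlated at 0.651 with replicate 2 of FCAVRN1 against FCA, also of the same orientation, and at -0.05 with its partner. The 16 h replicate 1 array reached 0.407 with replicate 2 of FCAVRN1 against WT. Over the 31 arrays the median was -0.03 for 16 h replicate 2, 0.05 for 8 h replicate 2 and 0.16 for 16 h replicate 1. These are correlations over probes that share a print, given as descriptions, and their source was not tested.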
